A study of Mus musculus with 7 samples.

Results

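The Reg genes of the mouse pancreas were followed across 7 RNA sequencing libraries of pancreatic spheroids, which are epithelial cultures grown as small balls of cells. The 6 genes Reg1, Reg2, Reg3a, Reg3b, Reg3d and Reg3g were taken by symbol from the 54446 genes of the count table, whatever their counts. They were chosen on measured values, since earlier results of these same libraries had shown Reg reads higher after caerulein, so their difference between the groups is given as a description and without a test. The cultures came from wild-type C57BL/6J mice, in 3 libraries from untreated animals (untreated 1 to 3) and in 4 from animals that had received caerulein, a cholecystokinin analogue used to induce pancreatitis (post-caerulein 1 to 4). The labels give no age, dose or interval after the treatment, nor whether replicates of a group were separate animals or cultures. The p-values below therefore measure only how far these libraries scatter, which may be technical. Both groups were grown in one medium, whose agents included epidermal growth factor, hydrocortisone, cholera toxin, nicotinamide, bovine pituitary extract and soybean trypsin inhibitor.

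Reg proteins are small secreted proteins with a C-type lectin fold. Reg1 and Reg2 are products of the acinar cells, the enzyme-secreting cells of the exocrine pancreas, while Reg3b, also called pancreatitis-associated protein, and Reg3g are made by gut and pancreatic epithelium in injury and infection and act against bacteria. In those tissues Reg3b and Reg3g are known to be induced by cytokines of the IL-6 and IL-22 groups through the transcription factor STAT3. Reg3d is related to the islet neogenesis associated protein, and Reg4, the remaining family member, lies on another chromosome and is known from the intestine.

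Total counts ran from 34783738 to 46744497 per library. The ductal keratins Krt8, Krt18 and Krt19 were each at 2302 counts per 1000000 (CPM) or more in every library, and all 13 ductal markers listed were detected in all 7. The libraries were uneven: untreated 1 and 2 resembled each other closely (biological coefficient of variation 8.67%), as did post-caerulein 2 and 3 (5.78%), against 21.98% or more for any other pair. The authors' deposited table of fold changes could be obtained again with a term that sets untreated 3 and post-caerulein 4 apart from the other 5 libraries. This term is called the block here, and no label says what it stands for. With group as the sole term, edgeR's quasi-likelihood test called 0 of 16438 genes at an adjusted p under 0.05 (0.0%), and 1561 genes (9.5%) had an unadjusted p under 0.05. In the same contrast limma-voom called 0 and DESeq2 498, or 2.77% of the 17958 genes that it gave an adjusted p. Without the filter on low counts edgeR called 23 (0.073%), and within those 5 libraries alone 2247 (13.8%). With the block 251 genes were called (1.53%), 107 of them higher (0.651%) and 144 lower (0.876%).

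The 6 genes lie together on chromosome 6 (GRCm38), within 98.012 kb from 78370861 to 78468872, and no other annotated gene lies between them. In order along the chromosome they are Reg3b (78370861 to 78373466, plus strand), Reg3d (78375874 to 78378865, minus), Reg3a (78380709 to 78383827, plus), Reg2 (78405158 to 78408106, plus), Reg1 (78422711 to 78428667, plus) and Reg3g (78466269 to 78468872, minus). The 250 bases before the RefSeq start of each gene (GRCm38.p6) were read for 6 short motifs, since 4 of the genes had reads in the same libraries and the remaining pair had almost none. They are shown 5′ to 3′ on the strand of the gene, for the 4 genes with reads in every post-caerulein library and for Reg3d, which had none. Capitals mark matches, on either strand, to TATAAA (the core promoter element bound by TBP), TTCNNNGAA (STAT), TGANTCA (AP-1), CACCTG (E-box), CTGGGA (acute phase) and TTGCNNAAT (C/EBP).
Reg1: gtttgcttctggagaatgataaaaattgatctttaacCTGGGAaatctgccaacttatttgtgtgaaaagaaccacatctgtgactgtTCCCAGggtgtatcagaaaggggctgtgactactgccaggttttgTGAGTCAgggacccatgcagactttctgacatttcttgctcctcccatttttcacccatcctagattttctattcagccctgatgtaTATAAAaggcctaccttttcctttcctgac
Reg2: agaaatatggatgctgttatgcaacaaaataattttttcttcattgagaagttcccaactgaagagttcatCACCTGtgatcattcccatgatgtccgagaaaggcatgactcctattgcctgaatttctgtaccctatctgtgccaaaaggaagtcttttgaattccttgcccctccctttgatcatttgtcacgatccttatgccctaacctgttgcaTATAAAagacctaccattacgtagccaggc
Reg3b: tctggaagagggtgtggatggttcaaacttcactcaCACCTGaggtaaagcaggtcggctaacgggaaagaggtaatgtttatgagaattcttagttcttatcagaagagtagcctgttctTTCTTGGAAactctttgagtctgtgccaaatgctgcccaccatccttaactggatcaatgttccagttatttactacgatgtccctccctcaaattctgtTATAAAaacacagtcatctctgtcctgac
Reg3g: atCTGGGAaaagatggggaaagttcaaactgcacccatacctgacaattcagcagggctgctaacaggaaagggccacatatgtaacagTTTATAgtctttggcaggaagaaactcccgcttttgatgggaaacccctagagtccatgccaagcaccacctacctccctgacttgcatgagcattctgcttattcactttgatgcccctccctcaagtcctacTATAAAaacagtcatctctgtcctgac
Reg3d: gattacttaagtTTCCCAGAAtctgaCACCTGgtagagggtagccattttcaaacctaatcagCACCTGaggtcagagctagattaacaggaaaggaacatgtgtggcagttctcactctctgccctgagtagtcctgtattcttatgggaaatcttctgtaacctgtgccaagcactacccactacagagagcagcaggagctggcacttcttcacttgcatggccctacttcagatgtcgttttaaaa

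The windows are chr6:78425733-78425982 (plus strand) for Reg1, chr6:78404905-78405154 (plus) for Reg2, chr6:78370635-78370884 (plus) for Reg3b, chr6:78468875-78469124 (minus) for Reg3g and chr6:78378866-78379115 (minus) for Reg3d. Reg1, Reg2, Reg3b and Reg3g each held TATAAA starting between 27 and 30 bases before the start. Reg3g held a further match on the opposite strand, from 161 to 156 bases before it. Neither Reg3a nor Reg3d held these letters, which occur somewhere in 12.4% of 32851 windows of this length. That absence depends on where the start of each gene is annotated, which was not tested. The Reg3a window ended in letters that in Reg3g lie before its TATAAA, so it may stop short of the matching stretch. The STAT letters, present in 7.02% of windows, were found in Reg3b, 129 to 121 bases before the start, and in Reg3d, where they overlapped the acute phase letters. The AP-1 letters (6.75% of windows) were found in Reg1 alone of the 6, 117 to 111 bases before its start, and the C/EBP letters (2.11%) in Reg3a alone. CACCTG (17.2% of windows) was found in Reg2, Reg3a, Reg3b and Reg3d, and CTGGGA (27.0%) in Reg1, Reg3a, Reg3d and Reg3g. These matches are letters in a window and not measured sites. Whether they bear on which of the genes had reads was not tested.

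Because the genes are close copies, their transcripts were compared before the reads were set side by side. Reg1 and Reg2 were 80.4% identical over their aligned transcripts, Reg3b and Reg3g 74.7%, and Reg3a and Reg3b 74.0%. No stretch of 36, 50 or 75 bases of one member occurred in another member. Reg1 shared 46 of its 869 stretches of 36 bases with genes outside the family, and none of 830 stretches of 75 bases. Read length, aligner and strand setting were not given in the sources used here.

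Across the cluster, reads were found almost wholly in post-caerulein libraries and in 4 of the 6 genes. The summed reads were 0, 3 and 2 in untreated 1 to 3 and 251, 74, 135 and 242 in post-caerulein 1 to 4. As CPM on effective library sizes these are 0, 0.0632 and 0.0445 against 7.04, 2.05, 2.84 and 5.08, a mean of 0.0359 ± 0.0325 (SD, n = 3) against 4.25 ± 2.26 (SD, n = 4). Every post-caerulein library lay above every untreated one. The pooled reads, 5 against 702, give a ratio of 112, with a 95% exact interval of 47.7 to 345 that, like all intervals here, covers counting error only. Fewer cells of a type that makes a transcript and less of it in each cell cannot be told apart in such bulk libraries.

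**Figure D1:**
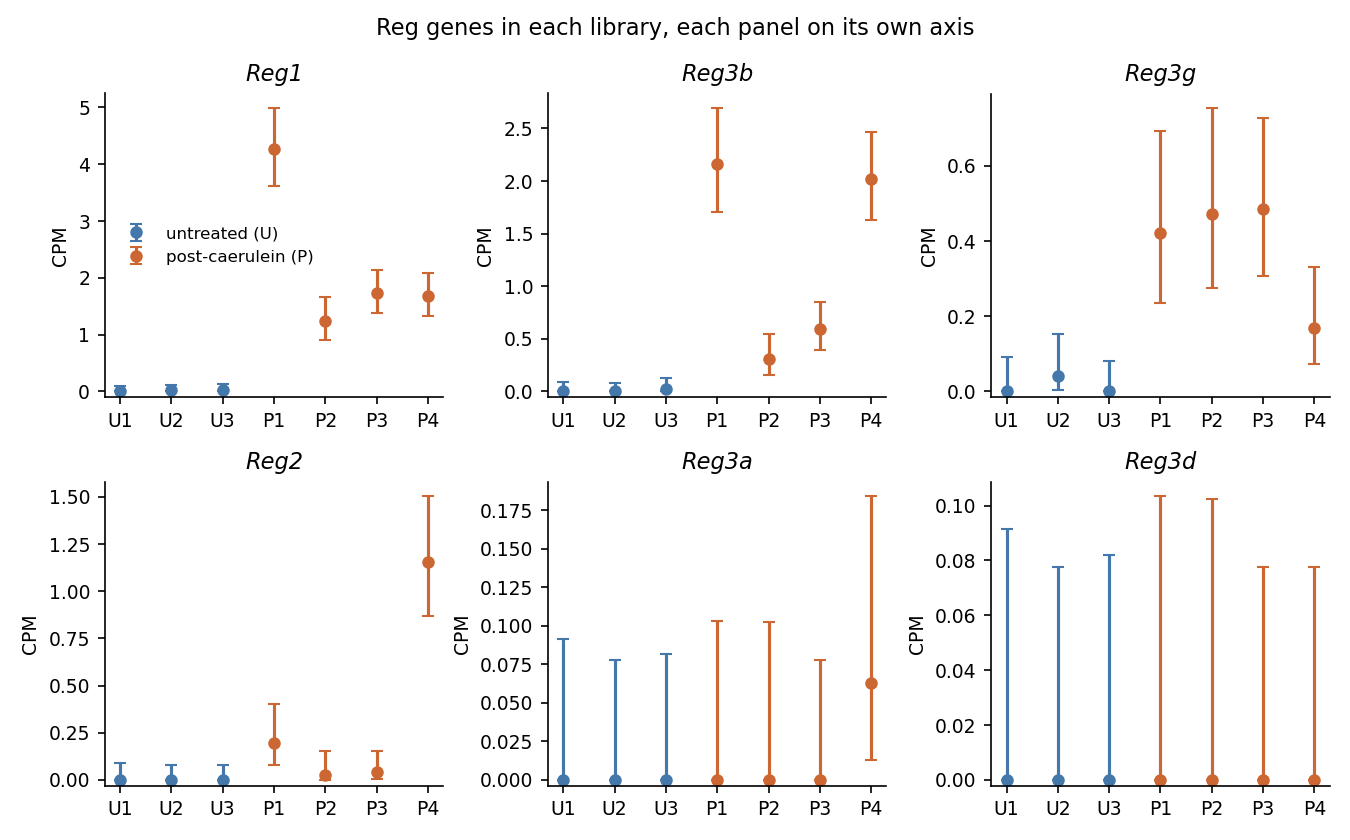
CPM of each Reg gene in untreated (U1 to U3) and post-caerulein (P1 to P4) libraries, with 95% exact counting intervals as bars and an axis of its own for each gene. Reg1 was highest in P1 at 4.26 CPM, Reg2 in P4 at 1.16 CPM, and Reg3d had no read in any library.

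**Figure D2:**
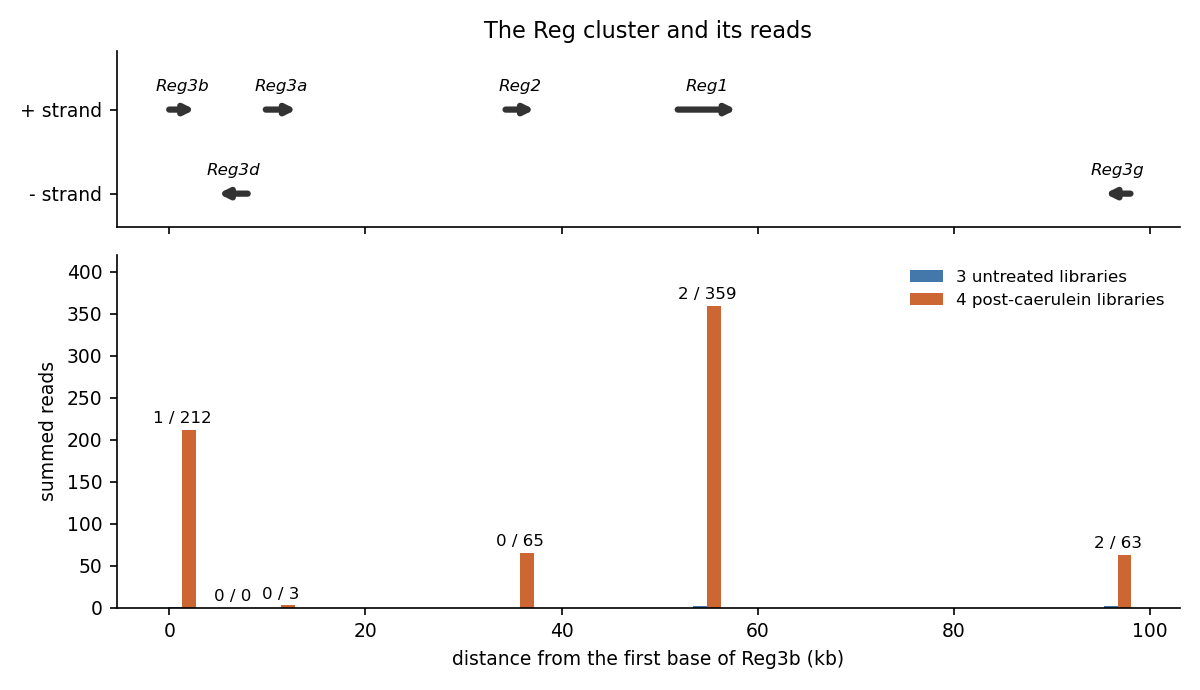
Above, the 6 Reg genes drawn to scale by strand against distance in kb from the first base of Reg3b. Below, the summed reads of each gene in the 3 untreated (left bar) and 4 post-caerulein libraries (right bar), with both numbers printed over the bars; Reg1 has 2 and 359, and Reg3d 0 and 0.

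Reg1, an acinar secretory protein first described in regenerating islets, gave more reads than any other member, 2 of them in untreated and 359 in post-caerulein libraries. It had 0, 1 and 1 reads in untreated 1 to 3 and 152, 45, 82 and 80 in post-caerulein 1 to 4. In CPM the post-caerulein values were 4.26, 1.25, 1.73 and 1.68, so that 3 of them lay close together and post-caerulein 1 above them. The mean was 0.0144 ± 0.0125 (SD, n = 3) before and 2.23 ± 1.37 CPM (SD, n = 4) after caerulein, with a ratio of pooled reads of 143 (39.3 to 1185). The fitted log2 fold change was 6.96 ± 0.80 (SE) with group alone and 6.91 ± 0.82 with the block, and it rests on 2 untreated reads. The authors' deposited table gives a log2 fold change of 6.92 for Reg1, and it lists none of the other members. Even so its average level stood at the 25.1 percentile of the genes kept, whose median was 14.96 CPM.

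Reg2, the closest copy of Reg1, was the most uneven of the 4 members with reads in every post-caerulein library. No read was found in untreated 1 to 3, against 7, 1, 2 and 55 in post-caerulein 1 to 4, or 0.196, 0.0277, 0.0421 and 1.16 CPM. Post-caerulein 4 thus held 84.6% of the gene's 65 reads, and the highest value was 41.7 times the lowest. Against the 3 counts that a group count of 0 allows, Reg2 was at least 17.3-fold higher after caerulein, and at least 3.71-fold higher without post-caerulein 4. The gene did not pass the filter on low counts.

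Reg3b, the pancreatitis-associated protein, had 0, 0 and 1 reads in untreated and 77, 11, 28 and 96 in post-caerulein libraries. Its post-caerulein values were 2.16, 0.305, 0.590 and 2.02 CPM, high in libraries 1 and 4 and low in the close pair 2 and 3. The means were 0.00741 ± 0.0128 (SD, n = 3) and 1.27 ± 0.956 CPM (SD, n = 4), and the ratio of pooled reads was 169 (29.97 to 6699). The log2 fold change was 6.93 ± 1.21 (SE) with group alone and 7.06 ± 1.18 with the block. It rests on 1 untreated read and was 8.76 without untreated 3, the library that held it.

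Reg3g, a lectin that kills Gram-positive bacteria, had the narrowest range of the 4 across post-caerulein libraries, 2.88-fold from the lowest to the highest. It had 0, 2 and 0 reads in untreated and 15, 17, 23 and 8 in post-caerulein libraries, the latter at 0.420, 0.471, 0.484 and 0.168 CPM. Post-caerulein 4, where Reg2 and Reg3b were high, had the lowest value. The mean was 0.0140 ± 0.0243 (SD, n = 3) against 0.386 ± 0.148 CPM (SD, n = 4), and the ratio of pooled reads 25.1 (6.66 to 212). The log2 fold change was 4.44 ± 0.87 (SE) with group alone and 4.36 ± 0.67 with the block. Both untreated reads lay in untreated 2, and without it the log2 fold change was 7.03.

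Reg3a had 3 reads, all in post-caerulein 4 (0.0630 CPM), which is no more than a count of 0 allows. Reg3d had none in any library. A count of 0 allows up to 3 counts, or 0.0841 CPM in the library of smallest effective size, so a transcript below that level could be missed there. Of the 6 members, Reg1, Reg3b and Reg3g passed the filter, and they passed it through their post-caerulein counts. Their calls in that contrast are not given, since it had served to choose them. The groups did not overlap for these 3, among 768 of the 16438 tested genes (4.67%) in this direction, nor for Reg2, which was not tested, and nothing is read from that count.

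The 4 genes did not keep the same proportions from library to library. Reg1 made up 60.6% (54.2 to 66.6, exact binomial), 60.8% (48.8 to 72.0) and 60.7% (52.0 to 69.0) of the Reg reads in post-caerulein 1 to 3 and 33.1% (27.2 to 39.4) in post-caerulein 4. Reg2 made up 2.79%, 1.35% and 1.48% in the first 3 and 22.7% (17.6 to 28.5) in the fourth. Reg3b took 30.7%, 14.9%, 20.7% and 39.7%, and Reg3g 5.98%, 23.0%, 17.0% and 3.31%. By share, Reg3b was thus higher and Reg3g lower in post-caerulein 1 and 4, and post-caerulein 4 differed from the other 3 in its Reg1 and Reg2. The Reg3b intervals of post-caerulein 1 (25.0 to 36.8) and 3 (14.2 to 28.6) overlapped. In CPM, Reg3g in post-caerulein 1 was 0.420, close to the 0.471 and 0.484 of post-caerulein 2 and 3.

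**Figure D3:**
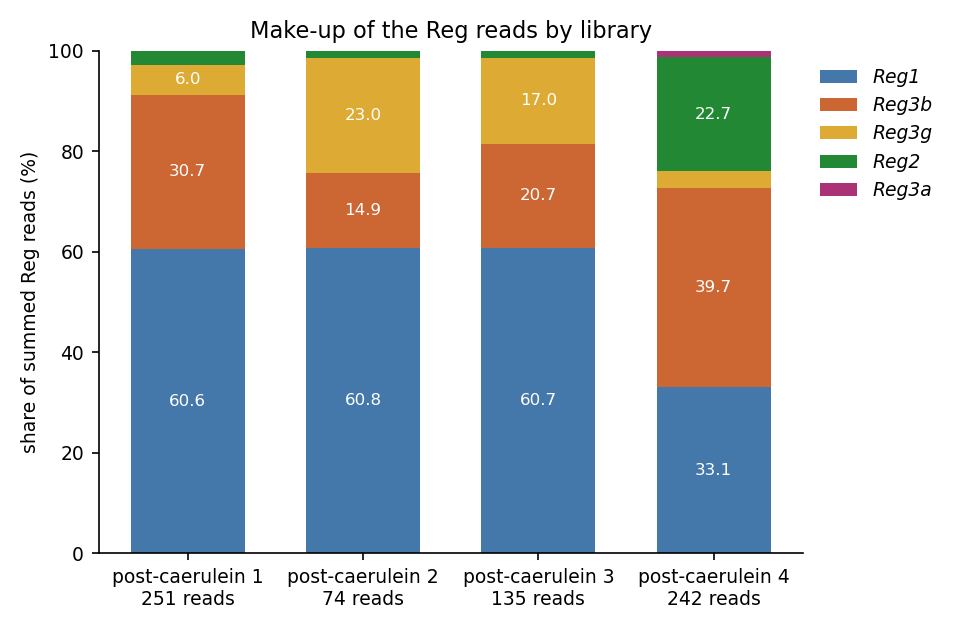
Share in percent of each Reg gene among the summed Reg reads of each post-caerulein library, with the number of reads under each bar. Reg1 takes about the same share in libraries 1 to 3, between 60.6% and 60.8%, and 33.1% in library 4, where Reg2 reaches 22.7%.

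Levels were compared between members only per kilobase of exon. Reg1 was the highest member in post-caerulein 1 to 3, at 4.71, 1.38 and 1.91 CPM per kb, and Reg3b in post-caerulein 4, at 2.58 CPM per kb. The per-length ratio of Reg1 to Reg3b was 1.71 (1.29 to 2.28), 3.54 (1.80 to 7.60), 2.54 (1.63 to 4.05) and 0.722 (0.530 to 0.981) in post-caerulein 1 to 4. The order of Reg3b and Reg3g could not be separated by counting error in post-caerulein 2 (ratio 0.637, 0.270 to 1.44) or 3 (1.20, 0.666 to 2.18), whereas Reg3b was 5.05 and 11.8 times Reg3g in libraries 1 and 4. Reg1 exceeded Reg2 by 16.8, 34.7 and 31.7 times in the first 3, while in post-caerulein 4 the ratio was 1.12 (0.787 to 1.61).

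The difference between groups was also taken on each side of the block. In the larger set (untreated 1 and 2, post-caerulein 1 to 3) the summed reads were 3 and 460, a ratio of 113 (38.4 to 550), and in the smaller (untreated 3 and post-caerulein 4) 2 and 242, a ratio of 114 (31.3 to 949). Reg1 had a ratio of 206 (36.6 to 8150) in the larger and 75.6 (13.2 to 3023) in the smaller set. Reg2, with no untreated read, was at least 2.46-fold higher after caerulein in the larger and at least 17.3-fold higher in the smaller set. Of the annotated genes whose leftmost base lay within 1 Mb on either side of the cluster there were 17, all predicted or unnamed clones. None had enough reads to be tested. A gene reaching into this stretch from further left was not counted. The single one with at least 10 reads, Gm5576, had 2, 3 and 7 in untreated and 5, 2, 3 and 3 in post-caerulein libraries.

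Acinar secretory transcripts were also highest in the post-caerulein libraries. The summed level of the 22 secretory products on the acinar list was 1.04, 1.26 and 1.67 CPM in untreated 1 to 3 against 10.8, 3.47, 5.05 and 21.6 CPM in post-caerulein 1 to 4, where post-caerulein 4 held 57.8% of the reads. Of the whole list of 27 markers 10 to 12 were detected in each untreated and 16 to 19 in each post-caerulein library, and its summed level was 10.9 to 20.6 CPM against 26.8 to 38.1 CPM. Defining acinar genes were rare: Cpa1, a carboxypeptidase of zymogen granules, had 0, 0 and 1 reads in untreated and 4, 1, 0 and 53 in post-caerulein libraries, and the amylase gene Amy2a5 had none. Prss1, Prss3 and Rnase1 had none either. Prss2, a trypsinogen, had 0, 0 and 1 against 11, 2, 2 and 75 reads.

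Of the 18 acinar products with a read after caerulein 13 were highest in post-caerulein 4, as Reg2 was, and 5 in another library (Ctrb1, Ctrc, Ctrl, Pnlip and Sycn). Ctrc and Pnlip had 1 read each. Ctrb1 (7.32 against 7.14 CPM in post-caerulein 4) and Ctrl (0.361 against 0.357 CPM) were nearly level. The share of all genes highest in post-caerulein 4 was not counted, so nothing is read from this split. Post-caerulein 4 held 91.4% of the post-caerulein reads of Cpa1, 83.3% of those of Prss2 and 84.6% of those of Reg2, for 28.5% of the summed library size. It held 45.8% of those of Ctrb1 and 7.69% of those of Sycn, a zymogen granule protein. For Reg1 and Reg3g that share was 22.3% and 12.7%. Per read of an acinar product there were 0.654, 0.592, 0.563 and 0.236 Reg reads in post-caerulein 1 to 4 and 0, 0.05 and 0.0267 in untreated 1 to 3. With the block, edgeR called 2 of the 7 acinar genes tested, both higher (0.651% of all genes), and the median log2 fold change of the 7 was 0.51. These were the chymotrypsinogen Ctrb1, from 0.105 ± 0.102 (SD, n = 3) to 4.42 ± 3.29 CPM (SD, n = 4), and the lipase-related Pnliprp2, from 0.111 ± 0.079 to 1.91 ± 2.59 CPM. Both passed the filter on low counts through their post-caerulein counts, so nothing is read from their direction. The part of acinar cells in the Reg difference was not tested.

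**Figure D4:**
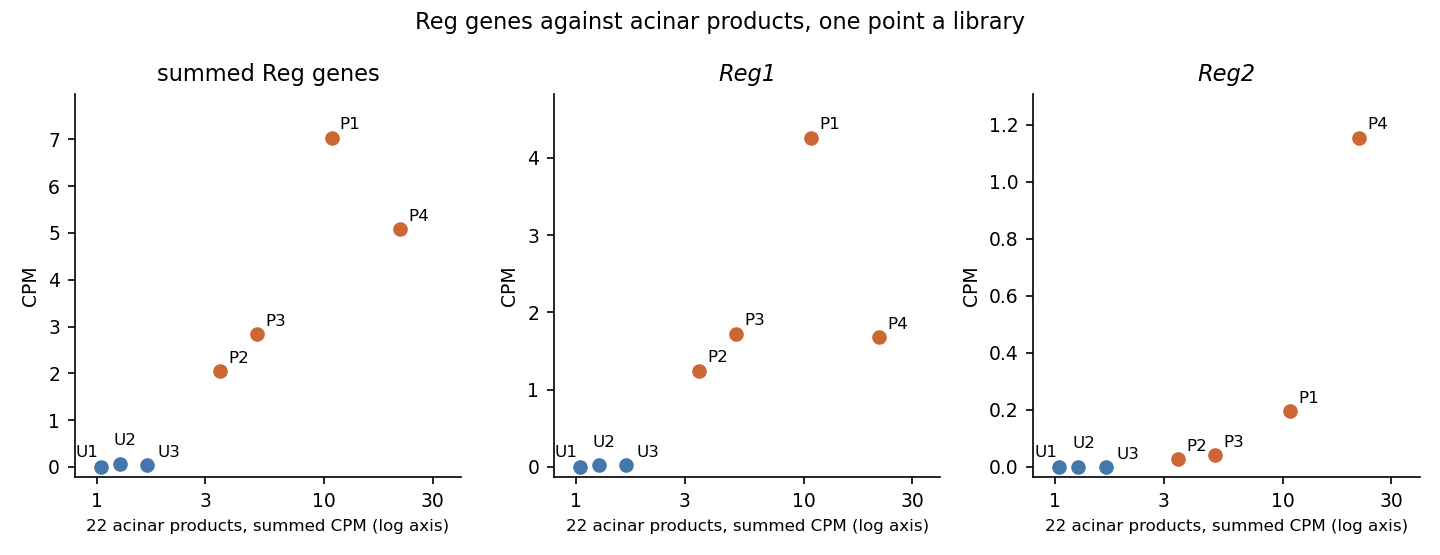
CPM of the summed Reg genes, Reg1 and Reg2 (linear axes) against the summed CPM of the 22 acinar products (log axis), one point for each untreated (U) and post-caerulein (P) library. Reg2 and the acinar products are both highest in P4, at 1.16 and 21.6 CPM, while Reg1 is highest in P1 at 4.26 CPM.

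Markers of other cell types were examined in the same way. The 5 tested of 14 islet markers had a median log2 fold change of 3.58 with group alone and 3.34 with the block. Of the 5, 4 had an unadjusted p under 0.05 (9.5% of all genes). These 4, Chga, Chgb, Iapp and Pcsk2, passed the filter on low counts through their post-caerulein counts, so nothing is read from their direction. The 14 summed to 0.272, 0.527 and 1.67 CPM before and 5.61, 5.93, 7.39 and 1.32 CPM after caerulein. In post-caerulein 4, with high Reg2 and Reg3b and the lowest Reg3g, they gave 63 reads against 75 in untreated 3, too small a difference to read. Of these reads Scg2 gave 29 and 38, and Chga 10 and 13. Other members went the other way, such as Iapp with 7 and 2 reads and the insulin gene Ins2 with 4 and 0. Iapp, the islet amyloid polypeptide, was at 0, 0 and 0.0445 CPM against 0.925, 0.693, 0.842 and 0.147 CPM, and the hormone gene Ppy had no read. Leukocyte markers, mostly Cd68, summed to 21.7 to 98.9 CPM untreated and 13.0 to 36.7 CPM after caerulein, and Cd4, Ms4a1 and Nkg7 had no read. Fibroblast markers ran from 0.190 to 21.3 CPM and from 3.06 to 7.52 CPM, and endothelial markers from 0.520 to 1.24 CPM and from 0.841 to 1.62 CPM. With edgeR, no islet, leukocyte, fibroblast, endothelial or ductal marker was called with group alone or with the block. DESeq2 called the islet markers Chga, Chgb, Iapp, Ins2 and Pcsk2 (it called 2.77% of the genes that it gave an adjusted p), and the part of these cells in the Reg difference was not tested.

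The genes most like the summed Reg level over the 7 libraries were sought among 13340 named genes that passed the filter, by the SD of the log2 ratio of each gene to the Reg sum (with 0.1 CPM added to both). The 6 with the smallest SD were Ctrb1 (0.71), Pzp, an alpha-2-macroglobulin family protease inhibitor (1.15), Ildr2 (1.15), the trefoil peptide Tff3 (1.18), the thyroid hormone carrier Ttr (1.20) and Tff2 (1.21), against a median of 2.69 over all genes compared. All share the same 7 libraries, so this is a description of them. The trefoil genes are also on the list of gastrointestinal secretory markers, which summed to 98.9, 98.1 and 29.4 CPM untreated and 271, 57.5, 105 and 76.9 CPM after caerulein. Of its 10 tested members Tff1, Tff2 and Tff3 were called higher with the block and none lower (0.651% and 0.876% of all genes). Tff2 passed the filter on low counts through its post-caerulein counts. The list's median log2 fold change was -0.10 with group alone and 0.62 with the block. Muc5ac, a gastric mucin, stood at 66.8, 61.9 and 1.91 CPM against 9.31, 3.74, 4.70 and 33.9 CPM.

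Extl3, a heparan sulphate glycosyltransferase reported as a receptor for Reg proteins, averaged 48.7 ± 3.81 (SD, n = 3) untreated and 45.8 ± 4.08 CPM (SD, n = 4) after caerulein, with a log2 fold change of -0.09 ± 0.11 (SE). Reg4 had no read in any library.

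Of the cytokine ligands listed, Il22 and Il17a had no read, Osm had 1 and Il6 21 in all 7 libraries together. None of the 6 tested ligands was called by edgeR with group alone or with the block. Their median log2 fold change was 0.03. Lif, an IL-6 family ligand, averaged 14.9 ± 11.01 (SD, n = 3) and 13.9 ± 5.65 CPM (SD, n = 4), and Clcf1, another IL-6 family ligand, stood at 85.2, 126 and 33.6 CPM against 47.4, 33.4, 29.5 and 26.5 CPM.

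Of 15 receptors and transducers of these cytokines all were tested. None was called by edgeR with group alone or with the block, and DESeq2 called Osmr. The median log2 fold change was 0.14 where that of all genes was -0.02. Stat3 itself stood at 184 ± 8.98 (SD, n = 3) and 186 ± 9.76 CPM (SD, n = 4). Osmr, the oncostatin M receptor, stood at 23.3, 21.4 and 38.6 CPM untreated and 91.1, 85.4, 85.9 and 44.9 CPM after caerulein, without overlap. Lifr, the leukaemia inhibitory factor receptor, was at 17.3, 17.4 and 12.4 against 27.7, 39.6, 41.5 and 17.4 CPM, the last of these barely above the untreated range. Both were lowest, within their group, in post-caerulein 4, where Reg2 and Reg3b were high and Reg3g was lowest, at 0.168 CPM.

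Of 17 STAT3 and acute phase targets outside the family 15 were tested. With edgeR none was called with group alone, and with the block 1 fell and none rose (0.876% and 0.651% of all genes), with a median log2 fold change of 0.83 in either fit. Several of the 15, Fgb, Fgg, Hp and Saa3 among them, passed the filter on low counts through their post-caerulein counts. Nothing is therefore read from that median or from the direction of these genes. DESeq2 called Fgb, Fgg, Lrg1 and Socs3. The one that fell was Cebpd, a transcription factor of the acute phase, at 117, 119.6 and 37.3 CPM untreated and 68.9, 59.5, 48.9 and 13.9 CPM after caerulein, where the groups overlapped (log2 fold change -1.12 ± 0.14, SE, with the block). Lrg1, a secreted acute phase protein, stood at 5.05, 3.94 and 14.0 against 85.8, 99.5, 116 and 30.4 CPM and was not called by edgeR in either fit. The fibrinogen chain Fgb was at 0.0495, 0.0421 and 0.311 against 0.448, 11.8, 18.4 and 1.62 CPM. It was high in the pair of libraries where Reg3b was low and Reg3g highest, at 0.471 and 0.484 CPM. Fgg, another fibrinogen chain, had the same order among the post-caerulein libraries.

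Of 21 secreted antimicrobial and mucosal defence genes 11 were tested, and with the block 2 rose and 1 fell (0.651% and 0.876% of all genes, median log2 fold change 0.62 with group alone and 0.83 with the block). Pigr, the receptor that carries IgA across epithelium, rose from 25.2 ± 7.34 (SD, n = 3) to 82.2 ± 31.7 CPM (SD, n = 4), by 1.64 ± 0.20 (log2, SE). Lypd8, which binds flagellated bacteria, stood at 5.34, 6.01 and 0.711 against 22.1, 16.1, 21.5 and 1.74 CPM and rose by 1.68 ± 0.19 with the block. Wfdc2, a whey acidic protein family inhibitor, fell from 382 ± 54.7 to 169 ± 32.3 CPM, with a log2 fold change of -1.18 ± 0.17. Lcn2, which binds bacterial siderophores, was at 1060, 963 and 1682 against 3298, 1947, 2085 and 1424 CPM, and was not called. Ltf, the iron-binding lactoferrin, was at 1101, 1024 and 5.31 against 52.6, 53.7, 48.0 and 13.1 CPM.

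In all, 91 of 162 listed genes passed the filter and were tested by edgeR. With group alone it called 0 (31 had an unadjusted p under 0.05, against 9.5% of all genes), and with the block 9 (1.53% of all genes). DESeq2, run without that filter on 144 listed genes, called 19. Its 2.77% over all genes is of the 17958 that it gave an adjusted p, and the listed genes were not limited to those, so these are not compared. The 9 calls rested on particular libraries: with the block, none was left without untreated 1, without untreated 2 or without post-caerulein 3, nor when each close pair was summed and counted once. Without post-caerulein 1 there were 6 and without post-caerulein 2 there were 5, whereas without untreated 3 there were 39 and without post-caerulein 4 there were 35.

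**Figure D5:**
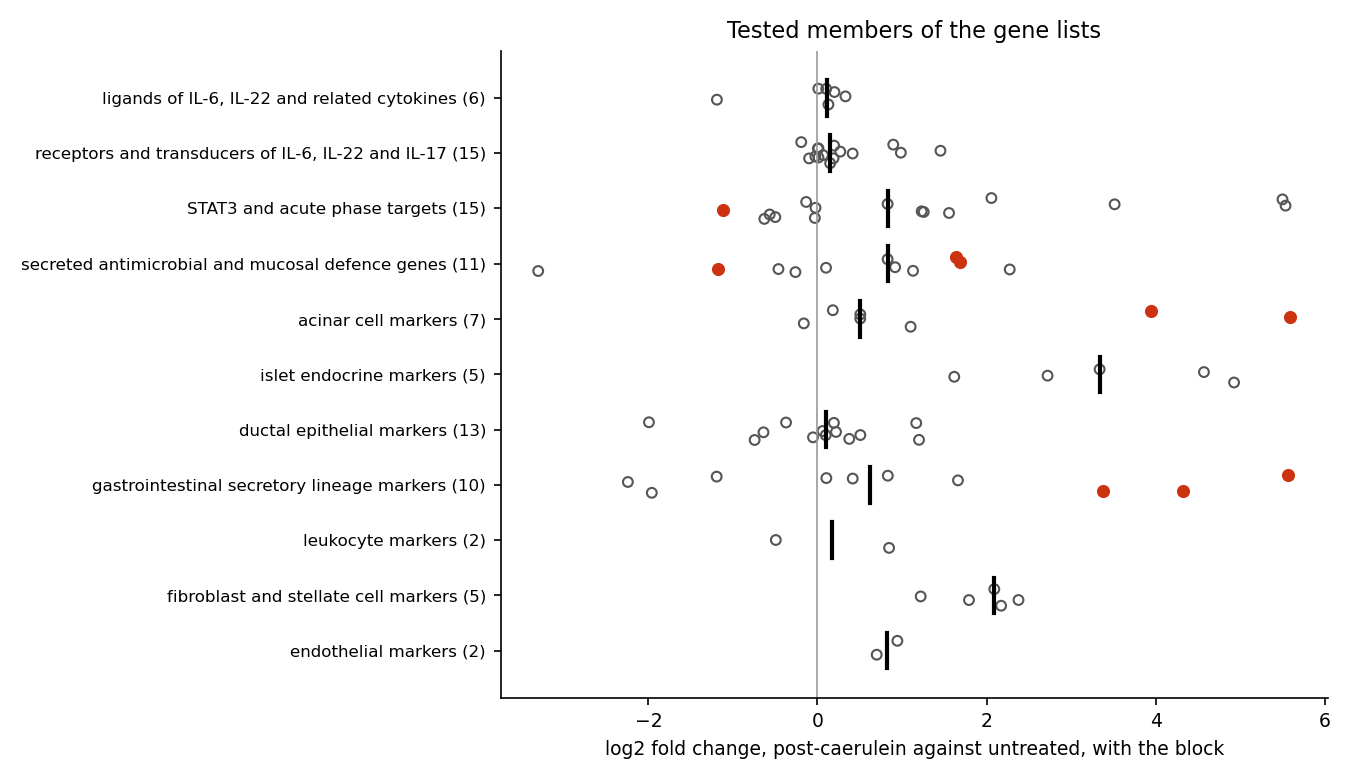
Log2 fold change of each tested gene of the lists, with the block, by list (number tested in brackets), with filled points for genes called at an adjusted p under 0.05, open points for the others and a bar at the median. The median of the receptors with the block is 0.15, with Osmr at 1.46, and the 9 called genes are 7 higher and 2 lower.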

How the data were processed

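Polyadenylated RNA of 3 untreated and 4 post-caerulein spheroid libraries was sequenced. The authors deposited raw counts per gene with exon coordinates, per the file headers, made with featureCounts 0.6.1 on GRCm38 (mm10), per the submitters' processing notes. The authors' deposited edgeR (3.2.2) table gives log2 fold changes, a likelihood ratio score, p-values and false discovery rates, per the file headers; a refit with the block matched its log2 fold changes within 3.2e-08 and all 1023 calls among 12983 genes.

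Counts were filtered (filterByExpr, minimum count 10, minimum total 15), scaled by TMM and tested with edgeR 4.0.16 (quasi-likelihood, robust, two-sided, Benjamini-Hochberg) in R 4.3.3. Alternatives used limma 3.58.1 and DESeq2 1.42.0, other scalings and filters, the block, and each library left out; block fits with libraries left out or close pairs summed were chosen after seeing the data. The procedure was tested on simulated data. Intervals are exact at 95%, and floors are 3 counts.

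The members and the 12 lists (164 entries, all matched, 1 under another symbol) were chosen with earlier results of these data known. Genes named were the members, Reg4, Extl3, per list the 3 most abundant, those called, and those without overlap and a log2 fold change of at least 1, the 6 most like the Reg sum, and neighbours with at least 10 reads. Cpa1, Prss2, Sycn, other acinar products, genes called by DESeq2 and genes with no or few reads were named after their values were seen. Promoters are from RefSeq (GRCm38.p6; 6 of 6 matched); protein sequences were not used here. Same-numbered libraries of the 2 groups correlated at 0.21, -0.20 and 0.18, so the numbers were not treated as pairs.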

Additional observations from a re-analysis of the deposited data

Results flagged for a closer look

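Among 62 sets of 4 post-caerulein values screened (the members, their shares and the named genes), 12 had a library that stood apart by Dixon's test at the 95% level. The 5% that this level allows to chance assumes 4 separate, normally distributed values. Post-caerulein 2 and 3 were close to each other (5.78%), so the 12 are a list of values and are not set against that 5%. Among the members, Reg1 was at 4.26 CPM in post-caerulein 1 against 1.25 to 1.73 in the others. Reg2 was at 1.16 CPM in post-caerulein 4 against 0.0277 to 0.196, and Reg3a at 0.0630 CPM there, from 3 reads, against 0. A gene with reads in 1 library alone is flagged whatever their number, so nothing is read from the flag of Reg3a. The Reg1 share of Reg reads was 33.1% in post-caerulein 4 against 60.6% to 60.8%, and the Reg2 share 22.7% against 1.35% to 2.79%.

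Of the listed genes and those most like the Reg sum, post-caerulein 1 stood apart for Il6st (325 CPM against 200.3 to 220.1), Nfkbiz (248 against 107 to 110.4) and Ttr (113 against 22.02 to 35.1). Post-caerulein 4 stood apart for Osmr (44.9 CPM against 85.4 to 91.1), Ltf (13.1 against 48.0 to 53.7) and Pnliprp2 (5.80 against 0.471 to 0.785). Post-caerulein 2 stood apart for Cd79a, at 0.388 CPM against 0.0840 to 0.126. Shares of 1 library add up to a whole, so those of Reg1 and Reg2 are not separate observations.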

How the results depend on the processing

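The log2 fold change of Reg1 ran from 6.39 to 7.41 over 16 alternatives. That of Reg3b ran from 5.89 to 7.29, apart from 8.39 in the larger block alone and 8.76 without untreated 3, also over 16. That of Reg3g, over 13, ran from 3.94 to 4.77 apart from 7.03 without untreated 2; without post-caerulein 1, 2 or 3 it did not pass the filter and has no value. With the replicate block, Reg1, Reg3b and Reg3g were at 6.91, 6.41 and 4.77, and 0 genes were called. The ratio of mean summed Reg CPM was 118, and 79.0 to 191 with each library left out. The number of genes called, 0 with group alone, was 23 without a filter, 498 by DESeq2, 251 with the block, 2247 in the larger block alone and 0 to 1149 with each library left out (1149 without untreated 3, 57 without post-caerulein 4). Of listed genes, these settings called 19 by DESeq2, 9 with the block, 38 in the larger block alone and 0 to 23 with each library left out. With the block, and chosen after seeing the data, leaving out untreated 3, post-caerulein 1, 2, 3 or 4 called 2267, 131, 29, 3 or 2086 genes and 39, 6, 5, 0 or 35 listed genes; leaving out untreated 1 or 2, or summing close pairs, called 0. The causes were not tested. Depth limits Reg2, Reg3a, Reg3d and every untreated value: 1 read more or less changes their fold changes, and the untreated Reg reads were 5 in all.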
